A study of Saccharomyces cerevisiae with 7 samples.

Results

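RPL24A (YGL031C) and RPL24B (YGR148C) are the 2 genes of Saccharomyces cerevisiae for the ribosomal protein eL24, and their introns were described here among the 280 introns listed in the study. They were taken by locus name, together with every listed pair of a 5′ splice site with a branch point on the same chromosome and strand that shares the annotated 5′ splice site or whose branch end falls within 2 nt of the annotated branch point. Of 174421 listed pairs, 102 belonged to RPL24A and 117 to RPL24B. The pair was selected on its aberrant 5′ splice site shares and lariat levels, which were already known, so all values below describe them and none is a test.

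The study sequenced intron lariats in 5 strains, one with wild-type PRP8 and 4 with a substitution in the RNaseH domain of Prp8, namely prp8-N1869D, prp8-V1870N, prp8-V1860D and prp8-V1860N. Every strain was mat a with the chromosomal PRP8 gene replaced by LYS2, was his3 leu2 ura3 lys2, lacked DBR1 (dbr1::Kan), and carried PRP8 or its prp8 allele on a pRS313 plasmid, so both the plasmid copy and the loss of Dbr1 were shared by the control. Cells grew in rich medium at 30 °C, and RNase R was used on total RNA, after removal of ribosomal RNA, to degrade linear molecules. There was 1 library per strain, plus 2 more prp8-N1869D libraries that the labels number as technical replicates. These 2 were summed and are called the second prp8-N1869D sample, although the labels do not say whether it came from another culture. Single libraries held 652680 to 3517283 lariat reads, the most in PRP8-WT.

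In splicing, the branch point adenosine attacks the 5′ splice site and the intron is released as a lariat, a loop with a tail that the enzyme Dbr1 normally opens. Prp8 lies at the core of the spliceosome and touches both the 5′ splice site and the branch site. A read across the lariat junction names the pair of sites that the spliceosome joined. The protein eL24 sits at the face of the large ribosomal subunit that meets the small one, where it takes part in a bridge between them, and it joins the particle late, in the cytoplasm, in the place of Rlp24. In yeast most ribosomal protein genes exist as duplicated pairs, and many of them hold introns.

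Both genes lie on the minus strand of chromosome VII (build R64). The authors list each intron in the 5′ untranslated region, and the RefSeq annotation used here places the coding sequence after it, with no intron drawn. The annotated 5′ splice site of RPL24A begins at position 438397 and its branch point is at 437986, which makes a loop of 412 nt whose branch point lies 52 nt before the start codon. In RPL24B the 5′ splice site begins at 788178 and the branch point is at 787852, with a loop of 327 nt and 73 nt to the start codon. The coding sequences (437467 to 437934 and 787312 to 787779) have 433 of 468 bases in common, or 92.5%, while the loops were 69.1% identical over the aligned bases. The loops share no run longer than 13 letters, so a read over the junction has letters by which the paralogues differ.

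The sequences that the results turn on are shown 5′ to 3′ on the minus strand, from the R64 reference. Capitals mark the first 6 bases of the intron at each 5′ splice site and the 7 bases of the branch site, whose next to last base is the branch point adenosine. The inner and upstream sites are those with the most reads inside and upstream of the RPL24B intron among 5′ splice sites more than 5 nt from the annotated one.
RPL24A annotated 5′ splice site, chrVII:438382-438405: cttgagagGTATGTccctatatga
RPL24B annotated 5′ splice site, chrVII:788163-788186: attgaaacGTATGTcgcgtgccca
RPL24B inner 5′ splice site, chrVII:788000-788023: ccagaaaaGTACATgcgaataaat
RPL24B upstream 5′ splice site, chrVII:788663-788686: gtttgtgcGTATGTatatgtgtgt
RPL24A branch site, chrVII:437977-438000: gcatagactTACTAACattttttt
RPL24B branch site, chrVII:787843-787866: aaaattgtgTACTAACatcaattt

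Both introns thus carry GTATGT and TACTAAC, the usual letters of yeast introns, as do 180 of the 280 listed introns. The inner site of RPL24B has GTACAT, with 2 differences from GTATGT, and 0 of the 280 annotated introns begin with GTACAT. The upstream site has GTATGT in full.

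The first comparison asked how much of the lariat pool each intron held. RPL24A lariats were read 0.302 times as often as RPL24B lariats in PRP8-WT, and both introns took a smaller share of the pool in the prp8-N1869D samples. RPL24A had 15242 annotated reads in PRP8-WT, 9284 for prp8-V1860N, 9428 for prp8-V1860D, 2895 for prp8-N1869D, 2590 for its second sample and 6520 for prp8-V1870N. RPL24B had 50505, 31964, 22712, 12255, 10490 and 16899 in the same order. A count is of reads over a single junction and is not scaled by length, and the loops differ in length. A share of the pool also falls when other lariats rise, so a lower share is not by itself a loss of lariats. Nor can lariats per cell be told apart from the number of cells that make them.

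Per 10000 annotated lariat reads, RPL24A held 50.1 for PRP8-WT (exact 95% binomial interval 49.3 to 50.9), 47.6 for prp8-V1860N, 51.2 for prp8-V1860D, 29.2 for prp8-N1869D, 23.4 for the second sample and 42.1 for prp8-V1870N. The 3 highest values were those of PRP8-WT and both V1860 strains, and both prp8-N1869D samples lay lowest. As log2 ratios to PRP8-WT these were -0.07 for prp8-V1860N (-0.11 to -0.04), 0.03 for prp8-V1860D (-0.01 to 0.07), -0.78 for prp8-N1869D (-0.84 to -0.72), -1.10 for its second sample (-1.16 to -1.04) and -0.25 for prp8-V1870N (-0.29 to -0.21). Intervals here and below cover counting error only, and reads without molecular identifiers are not independent molecules. By level, RPL24A ranked 68th of the 280 introns in PRP8-WT and 106th in the second prp8-N1869D sample.

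RPL24B held 166 reads per 10000 for PRP8-WT (164.6 to 167.4), 163.9 for prp8-V1860N, 123.3 for prp8-V1860D, 123.4 for prp8-N1869D, 94.9 for its second sample and 109 for prp8-V1870N. Here prp8-V1860N stood with PRP8-WT and the other 4 mutant samples were lower. The log2 ratios were -0.02 (-0.04 to 0.00), -0.43 (-0.45 to -0.41), -0.43 (-0.46 to -0.40), -0.81 (-0.84 to -0.78) and -0.61 (-0.63 to -0.58) in that order. RPL24B was the 9th most frequent of the 280 introns in PRP8-WT and the 25th in prp8-V1870N.

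Of the 2 prp8-N1869D samples, the second was lower than the first by a factor of 0.804 for RPL24A and 0.769 for RPL24B, and its technical libraries held 24.7 and 22.0 reads of RPL24A and 102.2 and 86.8 of RPL24B per 10000. This gap between samples of 1 strain is wider than the counting intervals, and no other strain has a second sample. The technical libraries of the second sample also lay apart by more than counting error. For RPL24B their intervals were 99.6 to 104.8 and 84.3 to 89.3, and for RPL24A 23.41 to 25.98 and 20.79 to 23.35. Counting intervals thus understate the spread of these levels even between technical libraries. For RPL24A, both prp8-N1869D samples lay farther from PRP8-WT than from each other. For RPL24B the log2 ratios of the 2 samples, -0.43 and -0.81, differed by nearly as much as the first differed from PRP8-WT, and the values of prp8-V1860D and prp8-V1870N lay in or near that range.

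**Figure D1:**
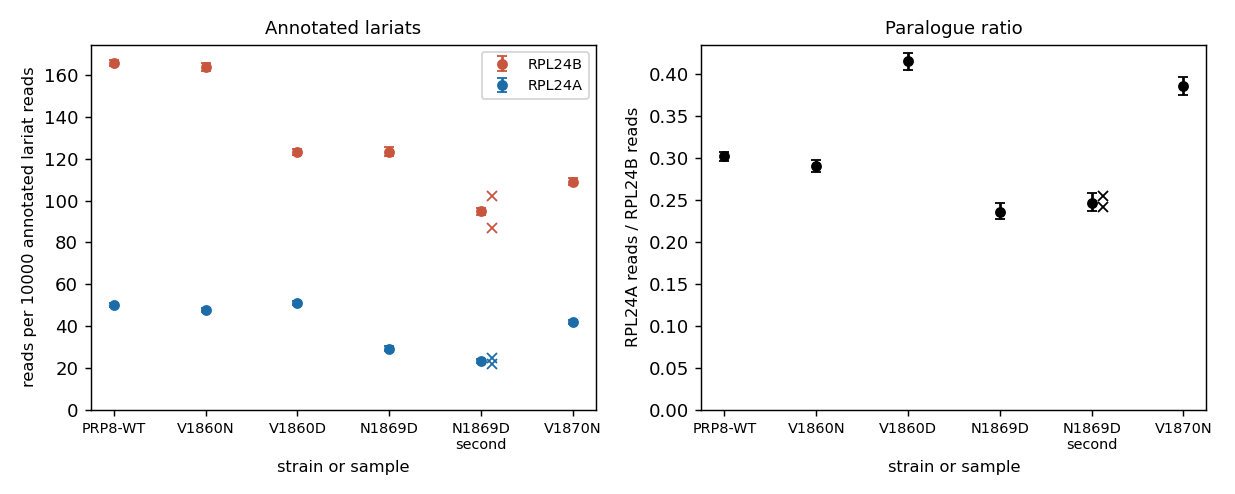
Left, reads of the annotated lariat per 10000 annotated lariat reads (vertical axis, linear) for RPL24A and RPL24B in each strain or sample. Right, the ratio of RPL24A to RPL24B reads. Points are 1 sample each, bars are exact 95% counting intervals and crosses are the 2 technical libraries behind the second prp8-N1869D sample. RPL24A was lowest in the prp8-N1869D samples (29.2 and 23.4), whereas the ratio was above PRP8-WT (0.302) for prp8-V1860D (0.415) and prp8-V1870N (0.386) and below it in both prp8-N1869D samples.

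Against all introns, RPL24A was past 1.5-fold lower than PRP8-WT in prp8-N1869D, where 15.2% of 257 introns were, and in the second sample, where 19.4% of 258 were. RPL24B was past 1.5-fold lower in the second sample and in prp8-V1870N, where 8.49% of 259 introns were. These RPL24B calls depend on the scaling: against ribosomal protein introns the log2 ratios were -0.52 for the second sample and -0.49 for prp8-V1870N, short of 1.5-fold, while TMM (-0.68) and DESeq2 (-0.73) size factors put prp8-N1869D past it as well. Neither gene passed that fold in prp8-V1860N or prp8-V1860D, where 0.391% and 1.95% of introns did. The median log2 ratio of all introns was 0.27 for prp8-N1869D, 0.21 for its second sample and 0.13 for prp8-V1870N, so both paralogues lay below the middle of the list in these samples.

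Introns of ribosomal protein genes as a class took a smaller share in those samples. Over all introns, 100 of 257 were lower in prp8-N1869D, 114 of 258 for the second sample and 111 of 259 for prp8-V1870N. Of 58 introns in large subunit protein genes, 40, 45 and 42 were lower in the same order, with medians of -0.34, -0.33 and -0.17. RPL24A was lower than all but 11, 7 and 20 of these introns, and RPL24B than all but 20, 14 and 7. In prp8-V1860D RPL24B, at -0.43, had only 4 of the 58 large subunit introns below it, against a median of -0.08, while RPL24A lay near the class. Of the 23 introns that the authors place in 5′ untranslated regions, 16 were lower in prp8-N1869D, 19 for its second sample and 14 for prp8-V1870N.

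The ratio between paralogues is free of the library total. RPL24A over RPL24B was 0.302 for PRP8-WT, 0.290 for prp8-V1860N, 0.415 for prp8-V1860D, 0.236 for prp8-N1869D, 0.247 for its second sample and 0.386 for prp8-V1870N. The ratio was thus higher in prp8-V1860D and prp8-V1870N and lower in both prp8-N1869D samples, which differed from each other by a factor of 1.045 only. The log2 change from PRP8-WT was -0.06 (-0.10 to -0.01), 0.46 (0.42 to 0.50), -0.35 (-0.42 to -0.29), -0.29 (-0.36 to -0.22) and 0.35 (0.31 to 0.40) in the sample order used above. The strains prp8-V1860N and prp8-V1860D, which carry different residues at the same position, lay apart by far more than counting error, with 1 library each. Counted at the annotated branch base alone, the change was 0.40 for prp8-V1860D, -0.47 and -0.56 for both prp8-N1869D samples and 0.21 for prp8-V1870N, with the same directions.

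The same ratio was taken for the 45 ribosomal protein paralogue pairs with 1 intron in each gene. Larger absolute changes than that of RPL24 were found in 36 pairs in prp8-V1860N, 6 for prp8-V1860D, 29 for prp8-N1869D, 30 for its second sample and 21 for prp8-V1870N. The median over pairs was above 0 in every mutant sample, at 0.26 for prp8-N1869D and 0.29 for the second sample, where RPL24 was negative. The extremes were RPS14, a small subunit protein pair, at -2.50 for prp8-N1869D and -3.63 for the second sample, and RPS24, also of the small subunit, at 2.37 and 2.46. RPS14 was also lowest in prp8-V1860N (-0.76) and prp8-V1870N (-1.94), and RPS24 highest (0.70 and 1.33). In prp8-V1860D the lowest and highest pairs were the large subunit pairs RPL27 (-0.80) and RPL33 (0.78). Between the 2 prp8-N1869D samples the RPL24 value moved by 0.06, against a median absolute move of 0.24 over the 45 pairs.

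**Figure D2:**
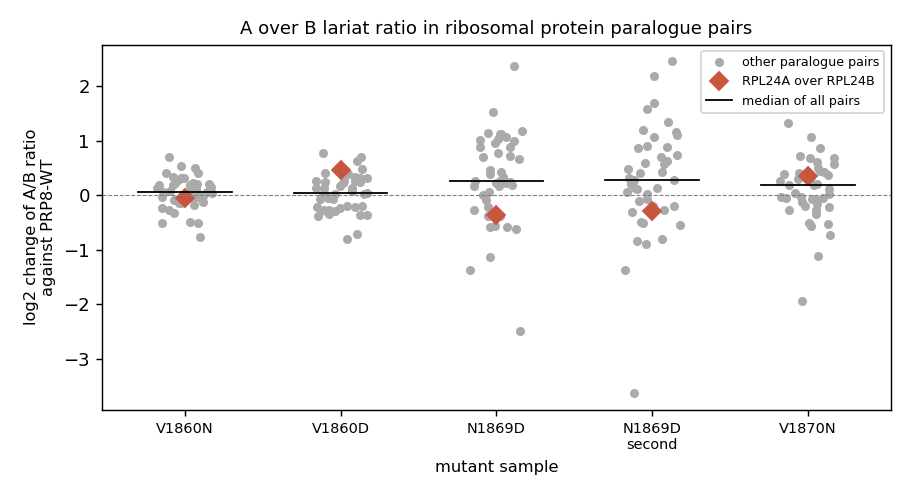
Log2 change of the A over B lariat ratio against PRP8-WT (vertical axis) for 45 ribosomal protein paralogue pairs in the 5 mutant samples; each dot is 1 pair, the diamond is RPL24 and the line is the median. RPL24 lay above 0 for prp8-V1860D (0.46) and prp8-V1870N (0.35) and below 0 in the prp8-N1869D samples (-0.35 and -0.29), inside the range of the other pairs throughout.

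The introns whose pattern over the 5 mutant samples was most like each member were sought among 240 introns whose annotated count reached 50 in each sample, by the root mean square difference in log2 share against PRP8-WT. For RPL24A these were RPS21B (0.12), RPS16B (0.13) and RPS17B (0.16), all of small subunit protein genes. For RPL24B they were RPL36B (0.09), of a large subunit protein gene, snR17a (0.11), which encodes the U3 small nucleolar RNA, and TUB3 (0.13), which encodes an alpha tubulin. The paralogue itself stood at 0.33, 32nd of 239 introns in either direction.

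The second comparison concerned aberrant 5′ splice sites, which by the authors' definition are between 5 and 1000 nt away from the annotated site, both limits excluded, with a branch end no more than 2 nt from the annotated one. The paralogues differed widely under this definition, with such sites in every RPL24B library and at most 2 reads per sample in RPL24A, but not when sites shifted by 1 to 5 nt are added, as given below. RPL24B had 928 aberrant reads in PRP8-WT, 451 for prp8-V1860N, 243 for prp8-V1860D, 141 for prp8-N1869D, 54 for its second sample and 239 for prp8-V1870N. RPL24A had 1, 0, 0, 2, 1 and 2 in the same order, and with 3 reads as the limit that a count of 0 allows, the share could be up to 0.0323% for prp8-V1860N and 0.0318% for prp8-V1860D. The two-sided exact 95% intervals used elsewhere reach 0.0397% and 0.0391% there. The exact intervals of the paralogues did not overlap in any of the 6 samples. The pair was selected on these shares, so nothing is read from that. The deposited collective counts of the authors equalled the recomputed ones for both genes in all 5 strains, and the RPL24B rates in the authors' deposited table are the same shares.

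As a share of aberrant plus annotated reads, RPL24B had 1.80% for PRP8-WT (1.69 to 1.92), 1.39% for prp8-V1860N (1.27 to 1.52), 1.06% for prp8-V1860D (0.930 to 1.20), 1.14% for prp8-N1869D (0.958 to 1.34), 0.512% for the second sample (0.385 to 0.668) and 1.39% for prp8-V1870N (1.22 to 1.58). PRP8-WT was highest, and its interval lay above that of each mutant sample. Intervals that lay apart in this direction were found in 4.28% of 257 introns in prp8-V1860N, 7.78% for prp8-V1860D, 1.56% for prp8-N1869D, 3.5% for its second sample and 1.95% for prp8-V1870N. This contrast was known when the genes were picked, so nothing is read from that count.

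Between the prp8-N1869D samples this share differed by a factor of 0.450, which is more than the first differed from PRP8-WT (0.630). The technical libraries of the second sample had 0.619% and 0.373%, from 37 and 17 reads. The direction was shared by all 5 mutant samples. These were all compared with the same single PRP8-WT library, and both prp8-N1869D samples are of 1 strain, so they are not independent comparisons. In 106 introns with at least 20 aberrant reads, 15 were lower than PRP8-WT in all 5.

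The RPL24B share stood high among introns, whose median was 0.0394% for PRP8-WT and 0.0181% for the second prp8-N1869D sample. RPL24B ranked 27th of 257 introns in PRP8-WT and 50th in that sample, and 7th and 17th of 58 introns in large subunit protein genes.

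A single position carried these reads. The inner site, 163 nt inside the intron at position 788015, would make a loop of 164 nt, and it held 899 of the 928 aberrant reads in PRP8-WT (96.9%), 445 of 451 for prp8-V1860N, 239 of 243 for prp8-V1860D, 134 of 141 for prp8-N1869D, 51 of 54 for its second sample and 227 of 239 for prp8-V1870N. Its part of the aberrant reads was lowest, at 94.4%, in the second prp8-N1869D sample, with an interval (84.6 to 98.8) that overlaps that of PRP8-WT. The lower counts were thus those of this single site. Per 10000 annotated lariat reads, the site had 2.96 for PRP8-WT, 2.28 for prp8-V1860N, 1.30 for prp8-V1860D, 1.35 for prp8-N1869D, 0.461 for its second sample and 1.46 for prp8-V1870N. The other 15 positions held 61 reads together: the most were 27 at the upstream GTATGT, 500 nt before the annotated site, and 10 at the base beside the inner site.

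In RPL24A only 3 aberrant positions appeared, with 6 reads in all. They began with GTCCAT 296 nt inside the intron and with GTAAGT and GTACGT upstream, and no position had more than 3 reads. Of the 16 positions of RPL24B, 9 began with GT.

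**Figure D3:**
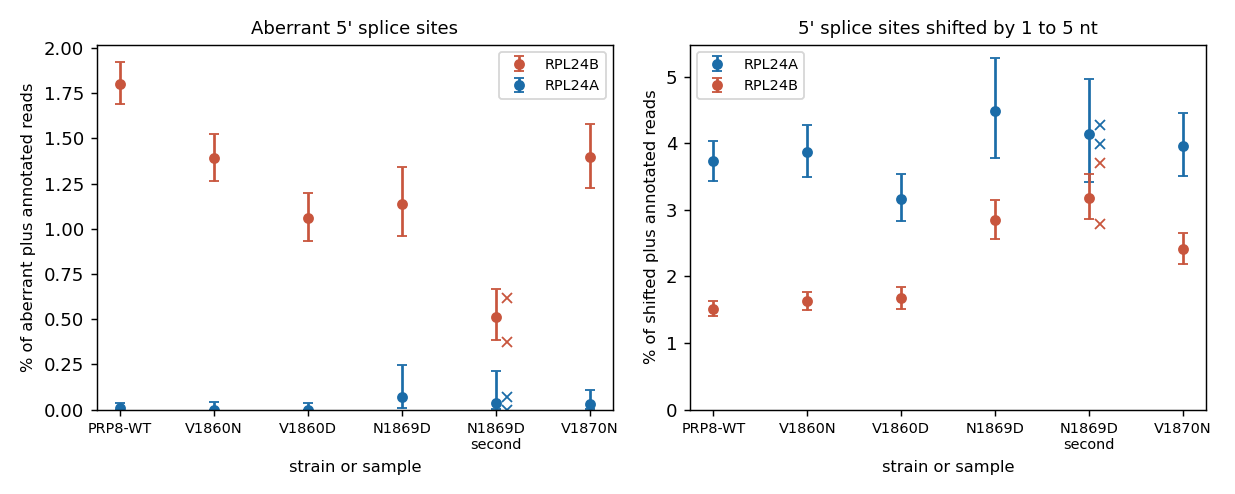
Left, aberrant reads as a percentage of aberrant plus annotated reads, and right, reads with the 5′ splice site shifted by 1 to 5 nt as a percentage of these plus annotated reads, in each strain or sample. Points are 1 sample each, bars are exact 95% binomial intervals and crosses are technical libraries. The aberrant share of RPL24B was highest in PRP8-WT (1.80%) and lowest in the second prp8-N1869D sample (0.512%), while its shifted share was lowest in PRP8-WT (1.52%) and highest in that sample (3.18%).

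Sites shifted by 1 to 5 nt are left out of the authors' definition and went the other way. In RPL24B they made up 1.52% of shifted plus annotated reads in PRP8-WT (1.41 to 1.63), 1.62% for prp8-V1860N, 1.67% for prp8-V1860D, 2.85% for prp8-N1869D (2.56 to 3.15), 3.18% for its second sample (2.86 to 3.53) and 2.41% for prp8-V1870N (2.19 to 2.65). Both prp8-N1869D samples and prp8-V1870N lay above the other 3 samples, with no overlap of intervals. The background introns need only 10 annotated reads per library and are not matched to RPL24B in depth. A higher share with intervals apart was seen in 8.95%, 6.61% and 8.17% of 257 introns in those 3 mutant samples. Reads starting 1 nt upstream made up 0.479% in PRP8-WT and 1.27%, 1.60% and 0.845% in them. In RPL24A the shifted share was 3.73% for PRP8-WT and 3.16% to 4.49% in the mutants, with intervals that overlap that of PRP8-WT throughout. Both genes stood high in this share: the median of 257 introns was 0.321% in PRP8-WT, where RPL24A ranked 26th and RPL24B 68th. In the second prp8-N1869D sample they ranked 24th and 32nd. With these shifted reads counted as aberrant, the RPL24B share was 3.27% for PRP8-WT, 3.92% for prp8-N1869D, 3.66% for its second sample and 3.74% for prp8-V1870N, so the direction turned in those 3, and stayed lower in prp8-V1860N (2.97%) and prp8-V1860D (2.70%). On that count the contrast between the paralogues also turned: RPL24A had 3.73% for PRP8-WT, 3.87% for prp8-V1860N, 3.16% for prp8-V1860D, 4.55% and 4.18% for both prp8-N1869D samples and 3.99% for prp8-V1870N, above RPL24B in each. The intervals of the paralogues lay apart in PRP8-WT and prp8-V1860N and overlapped in the other 4 samples. Whether a shift of 1 nt is a splice site or comes from the alignment of reads was not tested.

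The introns most like RPL24B in aberrant over annotated ratio, among the same 106, were those of YOS1, which encodes a membrane protein of transport from the endoplasmic reticulum, and of MTR2, which encodes an mRNA export factor. MTR2 had 98 aberrant reads in PRP8-WT (19.3%) and 23 to 47 in the mutant samples (8.30% to 13.7%). YOS1 intron 2 had only 8 aberrant reads in PRP8-WT and YOS1 intron 1 had 27, so these 2 rest on few reads. The root mean square differences were 0.51 for YOS1 intron 2, 0.54 for MTR2 and 0.54 for YOS1 intron 1. Even the closest, YOS1 intron 2, went the other way in prp8-V1860N, with a log2 ratio of 0.27 against -0.38 for RPL24B.

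The third comparison looked at which base was read as the branch point. Reverse transcriptase often misreads or skips the base at a lariat junction, and its part in these positions was not tested. Within 2 nt of the annotated adenosine, 52.6% of the RPL24A reads in PRP8-WT lay at that base and 35.3% lay 1 nt upstream. RPL24B was the other way round, with 30.6% at the base and 60.9% 1 nt upstream. This held in every sample: RPL24A had 49.8% to 54.1% at the base and RPL24B 30.6% to 34.9%. Over 259 introns the medians were 47.4% at the base and 42.1% 1 nt upstream, and RPL24B had more at 1 nt upstream than 211 of them.

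In RPL24B more reads lay at the annotated base in 4 mutant samples, with 32.9% for prp8-V1860D (32.3 to 33.5), 32.4% for prp8-N1869D (31.5 to 33.2), 34.9% for its second sample (34.0 to 35.9) and 32.7% for prp8-V1870N (32.0 to 33.4), against 30.6% for PRP8-WT (30.2 to 31.0) and 31.0% for prp8-V1860N. Shares higher than PRP8-WT with intervals apart occurred in 24.9% of 257 introns in prp8-V1860D, 3.5% for prp8-N1869D, 5.06% for its second sample and 5.45% for prp8-V1870N. In prp8-V1860D this is a common direction, and in the prp8-N1869D samples the median over introns differed from PRP8-WT by -1.22 and -0.95 percentage points, the opposite way. RPL24A was 49.8% for the second prp8-N1869D sample (47.9 to 51.8), just below the PRP8-WT interval (51.8 to 53.4), as 21% of introns were. In the other 4 mutant samples the RPL24A intervals overlapped that of PRP8-WT.

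Reads from the inner site of RPL24B were counted only with a branch end within 2 nt of the annotated one. The shared branch point is thus set by the definition. Within that window they also lay most often 1 nt upstream, but with a different spread than reads from the annotated site. In PRP8-WT 51.7% lay 1 nt upstream (48.4 to 55.0) and 34.4% at the base (31.3 to 37.6), where the annotated site had 60.9% and 30.6%, and 13.8% lay 2 nt upstream against 8.30%, with intervals apart at all 3 positions. In prp8-V1860N 46.97% lay 1 nt upstream against 60.69%, 38.65% at the base against 30.95%, and 14.16% lay 2 nt upstream against 8.22%, also with intervals apart. In prp8-V1860D, prp8-N1869D and prp8-V1870N the intervals lay apart 1 and 2 nt upstream, in the same directions, and overlapped at the base. The second prp8-N1869D sample had only 51 such reads, and its intervals overlapped those of the annotated site.

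**Figure D4:**
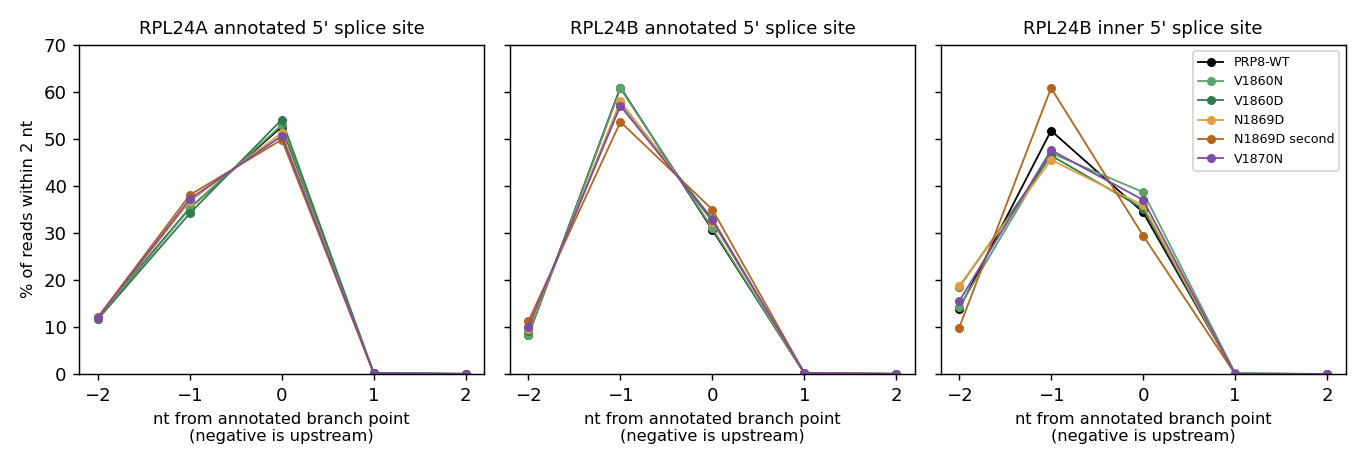
Share of reads (vertical axis, % of reads within 2 nt) by position from the annotated branch point in nt, for the annotated sites of RPL24A and RPL24B and the inner site of RPL24B; each line is 1 sample. RPL24A peaked at the annotated base (52.6% for PRP8-WT) and RPL24B 1 nt upstream (60.9%). The inner site panel is noisier, with 51 reads in the second prp8-N1869D sample.

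Farther branch points set the paralogues apart again. Among reads with the annotated 5′ splice site, 3.88% of those of RPL24A in PRP8-WT ended more than 2 nt from the annotated branch point (3.59 to 4.20), with 2.86% for prp8-V1860N (2.53 to 3.21), 2.61% for prp8-V1860D (2.30 to 2.95), 4.01% for prp8-N1869D, 4.15% for its second sample and 3.39% for prp8-V1870N. Both V1860 strains lay below PRP8-WT, and the other mutant samples overlapped it. Lower shares with intervals apart were seen in 1.56% of 257 introns in prp8-V1860N and 5.45% for prp8-V1860D. RPL24B had 0.0978% to 0.218%, with 65 reads in PRP8-WT, and all its mutant intervals overlapped that of PRP8-WT. RPL24A ranked 21st of 257 introns in PRP8-WT and RPL24B 214th.

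Most of these RPL24A reads lay at 1 base, 4 nt upstream of the annotated adenosine (position 437990). It held 530 of 616 such reads in PRP8-WT, 225 of 273 for prp8-V1860N, 215 of 253 for prp8-V1860D, 96 of 121 for prp8-N1869D, 89 of 112 for its second sample and 206 of 229 for prp8-V1870N. As a share of reads with the annotated 5′ splice site this was 3.34%, 2.35%, 2.22%, 3.18%, 3.29% and 3.05%. The base at that position is the first A of TACTAAC, which is there preceded by CT in the branch site printed above. RPL24B has an A at the same place, in a TACTAAC that follows TG, and at most 7 reads there in any sample.

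The letters before the branch site were searched over 259 introns with at least 100 reads, on the intron strand and ending 1 nt after the branch point. CTTACTAAC was found in 17 introns (6.56%), of which 8 had over 1% of reads 4 nt upstream, with a median of 0.92%. RPL24A, at 2.86% over all reads, ranked 3rd of the 17, after RUB1, a ubiquitin-like protein gene (5.56%, but with 133 reads), and ERD2, the receptor gene for retention in the endoplasmic reticulum (3.35%). Within single samples its rank was 1 for PRP8-WT, 2 for prp8-V1860N, 5 for prp8-V1860D, 2 for prp8-N1869D, 3 for its second sample and 3 for prp8-V1870N. Of 123 introns with another letter before TTACTAAC, 2 passed 1%, but the highest of them, at 27.9%, was above every CTTACTAAC intron. Of 79 with TACTAAC not preceded by T, which include RPL24B, 0 passed 1%. Introns without TACTAAC were left out of these counts. The match is a description of letters: they are those of the RPL24A branch site, and RPL24A is itself among the 17 and the 8. CTTACTAAC overlaps TACTAAC by construction.

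Further pairs at RPL24B joined neither annotated end. The upstream site at 788678, in the stretch between the coding sequences of RPL24B and GPC1, was joined to a second branch point at 788510, with 37 reads in all, and to the base beside it, 788511, with 32. The branch site there has CACTAAT in place of TACTAAC.
RPL24B upstream branch site, chrVII:788501-788524: aaacccaatCACTAATtttcaatt
Within 2 nt this pair had 29 reads in PRP8-WT, 13 for prp8-V1860N, 10 for prp8-V1860D, 5 for prp8-N1869D, 7 for its second sample and 7 for prp8-V1870N. Relative to annotated reads of RPL24B these were 0.0574% for PRP8-WT and 0.0407% to 0.0667% in the mutants, with overlapping intervals. The same upstream site was also read with the RPL24B branch point itself, as given above. A second site inside the intron, 127 nt from the annotated one at 788051, begins with GTTATA and was joined to several bases, the most often to 787912 (64 reads) and 787903 (36 reads), where the branch base is C. It had 49 reads in PRP8-WT, 27 for prp8-V1860N, 28 for prp8-V1860D, 3 for prp8-N1869D, 2 for its second sample and 16 for prp8-V1870N, or 0.0969% of these plus annotated reads in PRP8-WT and 0.0245% and 0.0191% in the prp8-N1869D samples. This site was chosen after its values were seen.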

How the data were processed

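Lariat reads were counted by the authors: the deposited files give raw counts of filtered reads across the branch point, per pair of sites and per annotated intron, with branch points within 2 nt pooled, per the file headers. The authors' deposited rate table gives aberrant reads as fractions of themselves plus the annotated ones. Trimmomatic and Bowtie2 with build R64 are named in the submitters' processing notes. Their versions, the read filter and the strand assignment were not given in the sources used here. Another 60 columns of per-sample values were not used.

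Annotated counts equalled the sum over pairs in 280 of 280 introns. Positions matched the R64 reference used here: 279 of 280 introns began with GT, 279 of 280 branch points were A, and 278 of 280 introns matched a gene by locus tag. Shares carry exact 95% binomial intervals, and log2 ratios use a pseudocount of 0.5 reads with exact Poisson ratio intervals. Depth was 652680 to 3517283 reads per library. With 1 library for PRP8-WT and for 3 of the 4 mutants, no test between strains was made. Introns that had 10 or more annotated reads per library (aberrant, shifted and branch shares) or 50 reads over both libraries (levels) gave the background. Most of them had fewer reads than either member. Intervals lie apart more easily at high counts, so the background percentages are not matched for depth. The members and lists were chosen with earlier results of these data known. Named introns are the 3 closest to each member by root mean square log2 difference, the extreme paralogue pairs per mutant sample, and pairs of at least 20 reads. RUB1, ERD2 and positions with fewer reads were named after their values were seen. YOS1 has 2 listed introns.

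Software was scipy 1.17.1, pandas 2.3.3, matplotlib 3.10.9 and numpy 2.4.6 under Python 3.11.15. Size factors for the alternative scalings came from DESeq2 1.42.0 and edgeR 4.0.16 under R 4.3.3. The calculations were tested on simulated data. Alternatives covered denominators, scaling, filters, branch and site windows, pseudocounts and leaving out each technical library. Those for shifted sites, for the share at the annotated branch base and for the base 4 nt upstream were chosen after seeing the data.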

Additional observations from a re-analysis of the deposited data

Results flagged for a closer look

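Mirror images, that is pairs on the opposite strand with both ends swapped within 10 nt, lie outside the comparisons above. Beside RPL24B they made up 2.48% of mirror plus annotated reads in PRP8-WT (2.35 to 2.62). In prp8-N1869D the value was 3.0% (2.71 to 3.31) and in its second sample 3.04% (2.72 to 3.38), both above the PRP8-WT interval. Of 257 introns, 10.1% and 11.7% lay above PRP8-WT with intervals apart in these samples, and the median over introns was 3.68% in PRP8-WT. The values were 2.67% for prp8-V1860N, 2.37% for prp8-V1860D and 2.82% for prp8-V1870N. RPL24A had 1.41% to 2.13% in the mutants and 1.65% for PRP8-WT, with overlapping intervals.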

How the results depend on the processing

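Of 282 alternative values 214 moved by no more than their counting interval or, in both prp8-N1869D samples, the SD between these samples where that was wider. Another 65 moved by more. A turn of direction was counted only where the main interval lay apart from that of PRP8-WT or, for log2 ratios, from 0. Smaller differences that turned are not in the count, such as other branch points of RPL24A in prp8-N1869D. These were 4.01% against 3.88% for PRP8-WT, and 3.69% against 3.77% with at least 2 reads per pair. By this rule 3 turned direction. The 3 are the RPL24B aberrant shares with sites from 1 nt away counted: 3.92% for prp8-N1869D, 3.66% for its second sample and 3.74% for prp8-V1870N, against 3.27% for PRP8-WT, 2.97% for prp8-V1860N and 2.70% for prp8-V1860D. The reads added are the shifted ones described above. On that setting RPL24A had 3.73% for PRP8-WT, 3.87% for prp8-V1860N, 3.16% for prp8-V1860D, 4.55% and 4.18% for both prp8-N1869D samples and 3.99% for prp8-V1870N. With the branch point exactly at the annotated base, the RPL24B aberrant share was 2.04% for PRP8-WT and 1.76% for prp8-V1860N, and the log2 paralogue ratio 0.40 for prp8-V1860D, -0.47 and -0.56 for both prp8-N1869D samples and 0.21 for prp8-V1870N. With branch points more than 5 nt away only, other branch points of RPL24A were 0.252% for PRP8-WT, 0.241% for prp8-V1860N, 0.114% for prp8-V1860D, 0.464% and 0.444% for both prp8-N1869D samples and 0.104% for prp8-V1870N, and those of RPL24B 0.0870% for PRP8-WT and 0.0812% for prp8-V1860N. For RPL24A the reads left out are mostly those 4 nt upstream.

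Log2 levels depended on scaling, with no change of direction. TMM moved the median of all introns by -0.25 and -0.23 for both prp8-N1869D samples and -0.13 for prp8-V1870N, DESeq2 size factors by -0.30, -0.29 and -0.14, a ribosomal protein intron denominator by 0.19, 0.29 and 0.12, and all lariat reads by -0.11 for prp8-V1870N. In the order prp8-V1860N, prp8-V1860D, prp8-N1869D, second sample, prp8-V1870N, as far as they moved by that measure, RPL24A was -0.16, -1.03, -1.33 and -0.38 under TMM (prp8-V1860D within the interval), and -0.15, 0.073, -1.08, -1.39 and -0.39 under DESeq2 factors. It was -0.81 (second sample) and -0.13 (prp8-V1870N) against ribosomal protein introns and -0.36 (prp8-V1870N) against all lariat reads. With introns of at least 10 reads it was -0.13 (prp8-V1860N) and -0.34 (prp8-V1870N) under TMM, and -0.13, 0.10, -1.05, -1.33 and -0.36 under DESeq2 factors. RPL24B was -0.10, -0.45, -0.68, -1.04 and -0.74 under TMM, and -0.094, -0.39, -0.73, -1.10 and -0.75 under DESeq2 factors. It was -0.39 (prp8-V1860D), -0.52 (second sample) and -0.49 (prp8-V1870N) against ribosomal protein introns, and -0.040, -0.46 and -0.71 for prp8-V1860N, prp8-V1860D and prp8-V1870N against all lariat reads. With introns of at least 10 reads it was -0.078 (prp8-V1860N) and -0.70 (prp8-V1870N) under TMM, and -0.070, -0.36, -0.70, -1.04 and -0.71 under DESeq2 factors. Leaving out either technical library put the RPL24B shifted share of the second sample at 2.78% to 3.71%. No paired analysis was possible because the labels number only the 2 technical libraries of prp8-N1869D, so no groups share replicate numbers. The RPL24A aberrant share rests on at most 2 reads per sample.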
